A study of Mus musculus with 6 samples.

Results

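The genes described here are 10 that mark or build the CD8a+ conventional dendritic cell (cDC1), namely Xcr1, Clec9a, Ly75, Cadm1, Itgae, Flt3, Batf3, Zbtb46, Wdfy4 and Naaa. They were taken by symbol from the 44678 Ensembl genes of the deposited count files, each matched a single gene, and all 10 had enough counts to be tested. The RNA came from untreated CD8a+ leukocytes of mouse spleen, in 3 WT and 3 miR-144/451 KO libraries, called WT1 to WT3 and KO1 to KO3 here. KO mice lack the genomic segment that holds both microRNA precursors, with no restriction to a tissue described, on a C57BL/6J background, and WT mice were C57BL/6J. Mice were 8 to 12 weeks old, the age given for all animals of the study, while their sex and whether a library held 1 mouse or a pool are not given in the sources used here. The study's methods describe magnetic bead sorting of T cells by CD8 (Ly-2) and of DCs by CD11c, and do not say which procedure gave the sequenced CD8a+ cells. If the samples were not taken from separate mice, the p-values below measure only technical spread.

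cDC1 are the splenic dendritic cells (DCs) that carry CD8a without being T cells. They take up dead cells, present the captured antigen on MHC class I to CD8+ T cells, which is called cross-presentation, and answer toll-like receptor 3 and 11 ligands. They develop from bone marrow progenitors under the cytokine receptor Flt3 and depend on the transcription factors Irf8, Batf3, Id2 and Nfil3. CD8a is also carried by CD8+ T cells, which are far more abundant in spleen.

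The deleted locus makes the mature microRNAs shown here 5′ to 3′, because the comparison turns on their loss. The sequences are those of RefSeq on GRCm38.p6, all on the plus strand of chromosome 11, and capitals mark the seed, bases 2 to 8.
mmu-miR-144-5p: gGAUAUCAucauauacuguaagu
mmu-miR-144-3p: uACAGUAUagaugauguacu
mmu-miR-451a: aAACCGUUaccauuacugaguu
They lie at 78073010 to 78073032, 78073047 to 78073066 and 78073186 to 78073207, respectively. The DNA letters that pair with the seeds are TGATATC for miR-144-5p, ATACTGT for miR-144-3p and AACGGTT for miR-451a. None of the 10 cDC1 genes had any of the 3 in an annotated 3′-UTR, read on the sense strand of the protein-coding transcripts of GENCODE M21. Among 11550 tested genes with an annotated 3′-UTR, 6.19% held the miR-144-5p match, 14.2% the miR-144-3p match and 2.04% the miR-451a match. The longest annotated 3′-UTR of the cDC1 genes ran from 306 bases in Itgae to 3364 bases in Xcr1, against a median of 1183 bases over the tested genes. The search covers exact matches to these letters and nothing else. Mir144 and Mir451a themselves had 0 counts in each of the 6 libraries, WT included, so that the deletion could not be read from the counts.

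The libraries held between 8143971 and 8876570 counts, so a count of 3 was worth 0.342 to 0.372 CPM (counts scaled by the library total after TMM correction), a floor for counting error only. Within a genotype, no pair of libraries was as alike as counting error alone would make them, and chi-square divided by its degrees of freedom ran from 6.55 to 23.5. CD8+ T cell RNA was plentiful, with Cd8a between 475 and 1040 CPM over the 6 libraries. The summed level of the 14 markers listed for CD8+ T cells was 4620 to 6064 CPM in WT and 3293 to 5788 CPM in KO libraries, and all 14 had a negative log2 fold change, with a median of -0.31 that ran from -0.57 without KO3 to -0.14 without KO2. B cell markers were also high, with 12 genes summing to 3533 to 6329 CPM in WT and 3371 to 6675 CPM in KO libraries, and all 12 had a positive log2 fold change, with a median of 0.28 that ran from 0.088 without KO2 to 0.62 without WT1. Beside these, the cDC1-restricted receptors Xcr1 and Clec9a were measured at 15.4 to 38.9 CPM.

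To compare levels between genes, CPM were divided by the kilobases of annotated exon. On this scale the mean over the 6 libraries of both genotypes was 38.8 CPM per kilobase ± 8.07 (SD, n = 6) for Wdfy4, 30.5 ± 8.18 for Naaa, 24.8 ± 6.09 for Itgae and 12.7 ± 1.72 for Ly75. Clec9a followed with 6.96 ± 2.54 CPM per kilobase, Flt3 with 6.23 ± 1.29, Batf3 with 4.84 ± 0.980, Xcr1 with 4.64 ± 1.65, Cadm1 with 3.50 ± 1.12 and Zbtb46 with 1.36 ± 0.290. Xcr1, Clec9a, Batf3 and Zbtb46, the genes most particular to conventional DCs, were among the lowest 6 of the 10. Only 2 neighbours in the order had ranges that did not overlap over the 6 libraries, Itgae above Ly75 and Cadm1 above Zbtb46. The other 7 neighbouring pairs overlapped, and Batf3 was above Xcr1 in 3 of 6 libraries.

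KO libraries were next compared with WT libraries to see whether the genes differ in level without miR-144/451. Because the 10 genes were chosen with earlier results of these data known, the shares over all tested genes are a description only. The fitted KO to WT difference was positive for 9 of the 10 genes, as for 50.6% of all tested genes, and negative for Itgae. Its median was 0.48 on the log2 scale against 0.0030 over all 13024 tested genes. None of the 10 passed an adjusted p-value of 0.05 (edgeR's quasi-likelihood test, Benjamini-Hochberg adjusted over all tested genes), a threshold that 4 genes in all, or 0.0307%, passed. An unadjusted p-value under 0.05 was reached by 6 of 10, all higher in KO libraries, namely Cadm1, Naaa, Flt3, Wdfy4, Zbtb46 and Xcr1, where 4.14% of all tested genes were higher and 2.11% lower at that threshold. All 3 KO libraries lay above all 3 WT libraries for 5 of 10 genes, against 5.82% of all tested genes, and below them for 0 of 10, against 5.65%. DESeq2 on the same counts called 2 of the 10, Cadm1 (adjusted p = 0.00375 from DESeq2's Wald test) and Naaa (adjusted p = 0.0424 from the same test), and limma voom called 0. Over all genes with an adjusted p-value, DESeq2 called 58, or 0.463%, and limma voom 3, or 0.023%. Among markers of other cells, of which edgeR called 0, the median log2 fold change was 0.89 for monocytes and macrophages, 0.62 for neutrophils, 0.28 for B cells, 1.1 for red cells, -0.31 for CD8+ T cells, -0.0082 for NK cells and 0.086 for plasmacytoid DCs. The summed levels of each of these lists overlapped between the genotypes, and their part in the cDC1 differences was not tested. In bulk RNA, more cells of a type and more RNA per cell cannot be told apart.

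**Figure D1:**
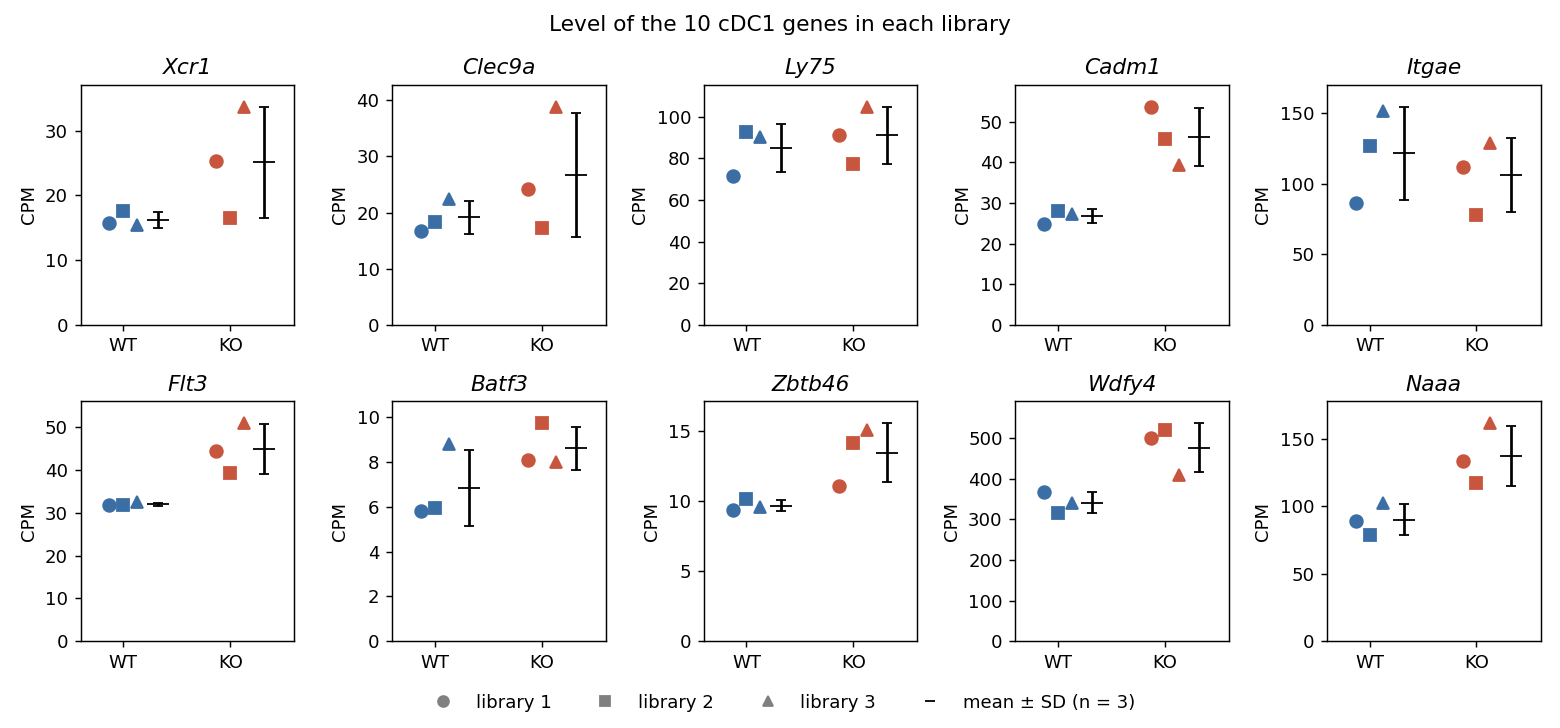
Level of each of the 10 cDC1 genes in CPM (vertical axes, linear and starting at 0) in the 3 WT (blue) and 3 KO (red) libraries, with circles, squares and triangles for libraries 1, 2 and 3 and black bars for the mean ± SD (n = 3). The KO points lie above all WT points for Cadm1, Flt3, Zbtb46, Wdfy4 and Naaa, and the groups overlap for the other 5 genes.

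Xcr1 encodes the chemokine receptor through which cDC1 respond to Xcl1 from activated CD8+ T and NK cells, and is found on the minus strand of chromosome 9, 123852315 to 123862029 (GRCm38, as for all positions below). Its level was 15.7, 17.7 and 15.4 CPM in WT1 to WT3 and 25.3, 16.4 and 33.6 CPM in KO1 to KO3. KO1 and KO3 were above every WT library, while KO2 lay within the WT range. The KO mean was 25.1 ± 8.58 CPM (SD, n = 3) against 16.2 ± 1.24 in WT, a fitted fold of 1.55 with a 95% interval of 1.05 to 2.28 (adjusted p = 0.786, edgeR).

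Clec9a, also called DNGR-1, recognises actin filaments exposed by dead cells and is on the plus strand of chromosome 6, 129408862 to 129424763. It had 16.7, 18.2 and 22.4 CPM in the WT libraries and 24.1, 17.2 and 38.9 CPM in KO1 to KO3. The order of the KO libraries was that of Xcr1, with KO3 highest and KO2 within the WT range. The fitted fold was 1.40 with a 95% interval of 0.893 to 2.19, so that neither equal levels nor a difference of that size could be set apart at this spread (adjusted p = 0.816, edgeR). Exons of Clec9a share 184 bases with those of Clec1b on the same strand, where the assignment of reads is uncertain.

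Cadm1, an adhesion molecule that binds Crtam on activated T cells, had the smallest p-value of the 10 genes and ranked at number 12 among all tested genes. It is on the plus strand of chromosome 9, 47530173 to 47857637. The level was 24.9, 28.1 and 27.2 CPM in WT1 to WT3 and 53.7, 45.8 and 39.4 CPM in KO1 to KO3. The lowest KO library stood well above the highest WT library. The fit gave a log2 fold change of 0.79 (standard error 0.13), or 1.73-fold with a 95% interval of 1.40 to 2.14 (unadjusted p = 0.00032 and adjusted p = 0.274, edgeR).

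Ly75 and Itgae had overlapping groups. Ly75, the endocytic receptor DEC-205, had 71.6, 92.7 and 90.3 CPM in WT and 91.3, 77.3 and 104.8 CPM in KO libraries, a fold of 1.07 (95% interval 0.860 to 1.34). It is on the minus strand of chromosome 2, 60292103 to 60383303, and shares 249 exon bases with Gm13571 on the opposite strand. Itgae encodes CD103, an integrin chain that CD8+ T cells carry as well, and is on the plus strand of chromosome 11, 73090583 to 73147446. It had 86.0, 126.8 and 151.5 CPM in WT and 112.1, 77.7 and 128.7 CPM in KO libraries, a fold of 0.875 with a 95% interval of 0.602 to 1.27. WT1 and KO2, which were low in Itgae, were also low among their genotype's libraries in summed CD8+ T cell markers, at 4620 and 3293 CPM. The part of T cell RNA in the Itgae values was not tested.

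Flt3, the receptor for the cytokine that drives DC development, is on the minus strand of chromosome 5, 147330741 to 147400489. The 3 WT libraries had 31.9, 31.8 and 32.5 CPM, and KO1 to KO3 had 44.5, 39.2 and 51.0 CPM. All KO libraries were above all WT libraries, and the fold was 1.40 with a 95% interval of 1.17 to 1.69 (unadjusted p = 0.00283 and adjusted p = 0.519, edgeR). The WT libraries lay closer together than counting error alone would place them, with a coefficient of variation of 1.13% where counting gives 6.04%.

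Among the transcription factors, Batf3, which cDC1 need for their development, had the fewest counts, between 51 and 81 per library. It is on the plus strand of chromosome 1, 191097847 to 191108945. Its level was 5.81, 5.92 and 8.79 CPM in WT and 8.09, 9.72 and 8.0 CPM in KO libraries. WT3 fell among the KO libraries, and the fold was 1.26 with a 95% interval of 0.865 to 1.83. Zbtb46, which marks conventional DCs of both lineages, is on the minus strand of chromosome 2, 181387762 to 181459426. It had 9.34, 10.1 and 9.54 CPM in WT and 11.1, 14.2 and 15.1 CPM in KO libraries, without overlap. Its fold was 1.39 with a 95% interval of 1.05 to 1.85 (unadjusted p = 0.0287 and adjusted p = 0.786, edgeR), and the coefficient of variation in WT, 4.30%, was again below the counting error of 11%.

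Wdfy4, a large protein required for cross-presentation of cell-associated antigen and also expressed by B cells, had the most counts of the 10 genes. It is on the minus strand of chromosome 14, 32959547 to 33185508. The level was 367, 315 and 341 CPM in WT and 501, 522 and 409 CPM in KO libraries. KO3 was the lowest of the KO libraries and still above WT1, the highest WT library. The fold was 1.40 with a 95% interval of 1.16 to 1.69 (unadjusted p = 0.00332 and adjusted p = 0.540, edgeR).

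Naaa, a lysosomal enzyme that breaks down fatty acid ethanolamides, is on the minus strand of chromosome 5, 92257659 to 92278170. It had 89.3, 78.7 and 102.1 CPM in WT1 to WT3 and 133.4, 117.0 and 161.4 CPM in KO1 to KO3. The groups did not overlap, and KO3 was again the highest. The fold was 1.53 with a 95% interval of 1.22 to 1.91 (unadjusted p = 0.00243 and adjusted p = 0.494, edgeR).

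The library with the highest level differed between genes. KO3 was the highest of all 6 libraries for 6 genes, Xcr1, Clec9a, Ly75, Flt3, Zbtb46 and Naaa, and 8 of its 10 values were above all WT libraries. KO1 had 7 of 10 values above all WT libraries, and was highest for Cadm1. KO2 had 6 of 10, was highest for Batf3 and Wdfy4 and lowest of all libraries for Itgae. WT1 was the lowest library for 5 genes and WT2 for 3. The median of the 10 genes on the log2 scale, each centred on its mean over the libraries, was -0.32, -0.26 and -0.17 in WT1 to WT3 and 0.19, 0.069 and 0.34 in KO1 to KO3, without overlap.

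**Figure D2:**
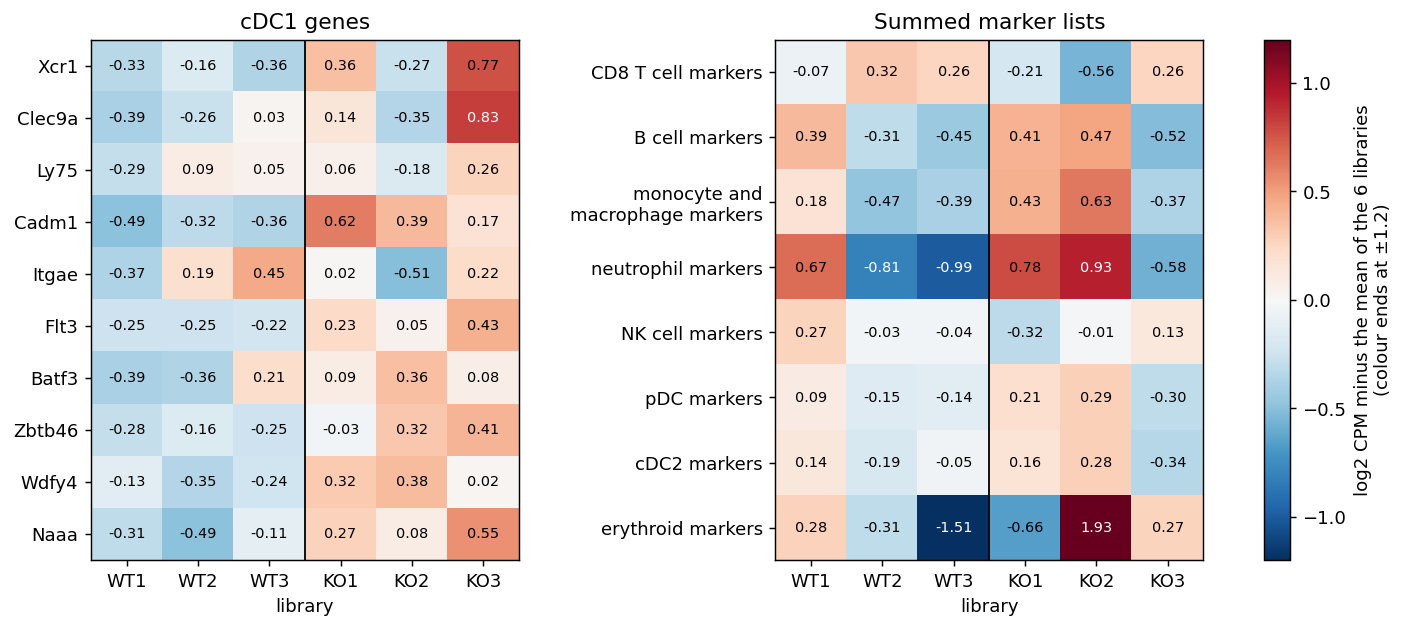
Left, log2 CPM of the 10 cDC1 genes in each library minus the mean of the 6 libraries, and right, the same for the summed CPM of 8 marker lists, with red above and blue below the mean and a black line between WT and KO libraries. KO3 is the highest library for Xcr1 (0.77) and Clec9a (0.83), while its B cell (-0.52) and neutrophil (-0.58) sums are below the mean as in WT2 and WT3.

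Markers of other cells varied between libraries of the same genotype. The B cell sum was 6329 CPM in WT1, 6422 in KO1 and 6675 in KO2, and 3896, 3533 and 3371 CPM in WT2, WT3 and KO3. The 9 neutrophil markers divided the libraries likewise, with sums of 1063 CPM in WT1, 1149 in KO1 and 1278 in KO2, against 381, 336 and 449 CPM in WT2, WT3 and KO3. All 9 neutrophil markers had a positive log2 fold change, with a median of 0.62 that ran from 0.27 without WT3 to 1.59 without WT1. The 14 monocyte and macrophage markers summed to 1378 to 2162 CPM in WT and 1474 to 2954 CPM in KO libraries, and their median log2 fold change was 0.89, with 13 of 14 positive, beside 0.48 for the 10 cDC1 genes. It ran from 0.56 without KO2 to 1.22 without KO3, and the difference between the lists was not tested. An unadjusted p-value under 0.05 with higher KO levels was found for 8 of the 14, against 4.14% of all tested genes, although none passed the adjusted threshold in edgeR. DESeq2 called 1 of the 14, Mertk, against 0.463% of all genes, and limma voom 0, against 0.023%. Csf1r had 303, 196 and 219 CPM in WT and 471, 574 and 208 CPM in KO libraries. The 9 NK cell markers summed to 568 to 701 CPM in WT and 468 to 638 CPM in KO libraries, and their median log2 fold change rose to 0.49 without WT1. Of the 9, 4 had a positive and 5 a negative log2 fold change, from -0.43 for Nkg7, with the highest CPM of the list, to 1.14 for Klra8. Their median near 0 in the main fit thus covers markers that differed in both directions. No marker of any list was at 0 in all libraries. The 9 red cell markers summed to 249 to 861 CPM in WT and 449 to 2710 CPM in KO libraries, and all 9 had a positive log2 fold change, with a median of 1.1 that fell to 0.064 without KO2.

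KO3 was near WT2 and WT3 in the marker sums of some other cell types and not of all. Their CD8+ T cell sums were 5788 CPM in KO3 against 6064 and 5785 CPM, and their monocyte and macrophage sums were 1474 against 1378 and 1457 CPM. Red cell sums were 854 CPM in KO3 against 573 and 249 CPM, and NK cell sums 638 against 569 and 568 CPM. Between these libraries Xcr1 was 33.6 CPM in KO3 against 17.7 and 15.4 CPM, Flt3 51.0 against 31.8 and 32.5 CPM, and Naaa 161.4 against 78.7 and 102.1 CPM. The gap was small or absent for other genes, with Ly75 at 104.8 CPM in KO3 against 92.7 and 90.3 CPM, Itgae at 128.7 against 126.8 and 151.5 CPM, and Batf3 at 8.0 against 5.92 and 8.79 CPM. WT1 had sums near those of KO1 for B cells and neutrophils, but not for red cells, at 861 against 449 CPM, or NK cells, at 701 against 468 CPM. It had 15.7 CPM of Xcr1 against 25.3 CPM in KO1 and 24.9 CPM of Cadm1 against 53.7 CPM. KO2 had the lowest T cell sum and the highest B cell, monocyte and red cell sums, and its Xcr1 and Clec9a lay within the WT range. The part of these cells in the differences was not tested.

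Markers of the other DC types were read in the same fit. For cDC2, the conventional DCs without CD8a, the summed level of 15 markers was 849 to 1066 CPM in WT and 765 to 1180 CPM in KO libraries, with KO3 lowest of all. Ltb made up the largest share of this sum, with 435, 482 and 566 CPM in WT and 397, 339 and 422 CPM in KO libraries. Within each genotype it was lowest in WT1 and KO2, as was the summed level of CD8+ T cell markers. The part of T cell RNA in the cDC2 sum was not tested. Of the 14 tested, 12 had a positive and 2 a negative log2 fold change, with a median of 0.38, beside 0.48 for the 10 cDC1 genes. It ran from 0.18 without KO2 to 0.65 without WT1. The difference between the lists was not tested. Irf4 and Itgam had log2 fold changes of 0.34 and 0.41, with overlapping groups. Sirpa, a cDC2 and macrophage receptor, had 160, 99.1 and 109 CPM in WT and 243, 285 and 105 CPM in KO libraries. For plasmacytoid DCs the sum of 13 markers was 597 to 708 CPM in WT and 539 to 809 CPM in KO libraries, and 6 of 12 had a positive log2 fold change, with a median of 0.086 that ran from -0.028 without WT3 to 0.17 without KO3. Spib and Ly6d had the highest CPM of this list, and both were highest in WT1, KO1 and KO2, as was the B cell sum. Spib had 221, 149 and 156 CPM in WT and 253, 279 and 123 CPM in KO libraries. Siglech had a log2 fold change of -0.016. The part of B cell RNA in this sum was not tested. None of the 14 tested cDC2 and 12 tested plasmacytoid DC markers passed the adjusted threshold (edgeR), and 2 and 0 of them, respectively, had an unadjusted p-value under 0.05, where 4.14% of all tested genes were higher and 2.11% lower. Of the former, Clec4a2 had the higher and Ltb the lower KO level. DESeq2 and limma voom also called 0 genes in both lists.

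When each library was left out in turn, the median log2 fold change of the 10 genes lay between 0.36, without KO3, and 0.51. Without KO3, Xcr1 had a log2 fold change of 0.34 and Clec9a of 0.093, compared with 0.63 and 0.48 with all libraries. Cadm1 instead moved to 0.87 without KO3 and passed the threshold (adjusted p = 0.0282, edgeR), in a comparison where 94 genes, or 0.707%, passed in all. The range over the 6 fits was 0.65 to 0.87 for Cadm1, 0.37 to 0.57 for Flt3, 0.41 to 0.56 for Wdfy4, 0.46 to 0.71 for Naaa and 0.36 to 0.58 for Zbtb46. Xcr1 and Clec9a were highest without KO2, at 0.86 and 0.72. Batf3 ran from 0.23 without WT1 to 0.53 without WT3, around 0.33 with all libraries. Itgae stayed negative, from -0.39 without WT1 to -0.017 without WT3 and -0.012 without KO2, around -0.19 with all libraries. Ly75 changed sign without WT1 and without KO3.

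**Figure D3:**
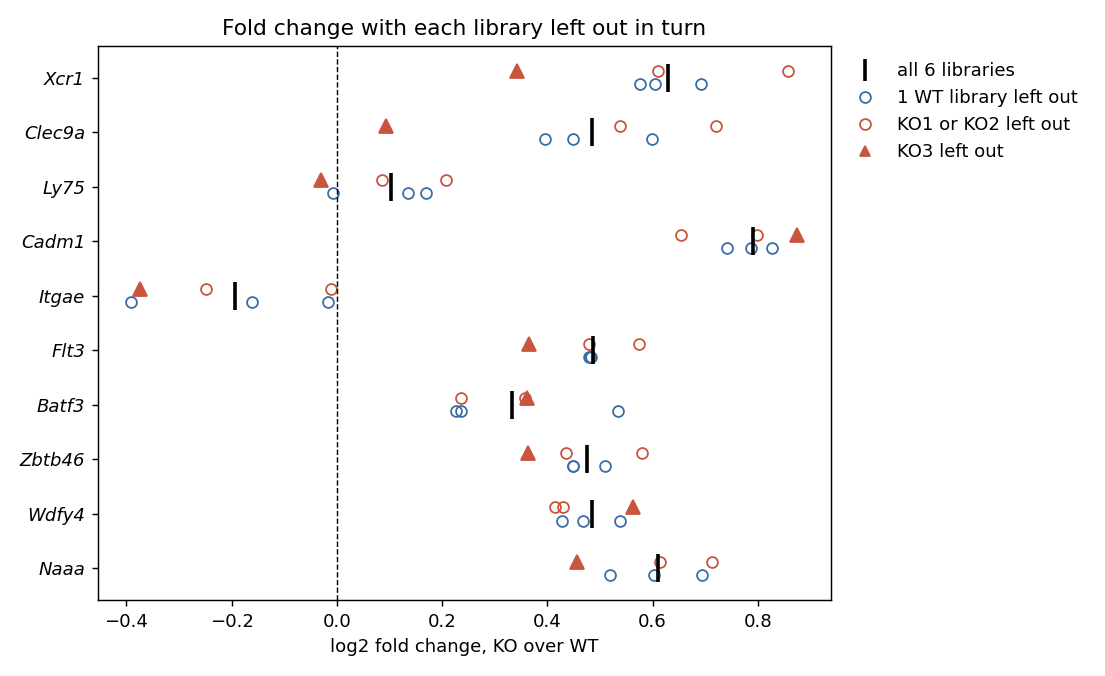
Fitted log2 fold change of KO over WT (horizontal axis) for each cDC1 gene with all 6 libraries (black bars), with a WT library left out (blue circles), with KO1 or KO2 left out (red circles) and with KO3 left out (red triangles). Without KO3 the value falls to 0.34 for Xcr1 and to 0.093 for Clec9a and reaches 0.87 for Cadm1.

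A list of 23 other genes known from cDC1 was compared in the same fit. Of these, 21 had a positive and 2 a negative log2 fold change, with a median of 0.45 that ran from 0.35 without WT3 to 0.50 without WT1. None passed the adjusted threshold in edgeR's test, while 9 had an unadjusted p-value under 0.05, all higher in KO libraries, against 4.14% of all tested genes, and for 8 all KO libraries lay above all WT libraries, against 5.82%. DESeq2 called 1 of them, Rab43, against 0.463% of all genes, and limma voom called 0, against 0.023%. Rab43, a small GTPase of cross-presentation, had 135, 126 and 149 CPM in WT and 202, 190 and 192 CPM in KO libraries, a log2 fold change of 0.51 (95% interval 0.31 to 0.71, adjusted p = 0.274, edgeR). Ppt1, a lysosomal thioesterase, had 154, 136 and 159 CPM in WT and 238, 178 and 245 CPM in KO libraries. Irf8, the transcription factor that sets the cDC1 lineage and is also expressed by B cells and monocytes, had 289, 224 and 259 CPM in WT and 392, 384 and 286 CPM in KO libraries, with KO3 just below WT1. Cd24a and Btla, surface proteins also found on B cells, had overlapping groups, with log2 fold changes of 0.24 (95% interval -0.39 to 0.88) and 0.28 (95% interval -0.17 to 0.73).

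The following genes of the list were picked after their values were seen. Tlr11, a sensor of Toxoplasma profilin, had 8.88, 7.97 and 7.68 CPM in WT and 12, 10.8 and 18.2 CPM in KO libraries, and Rab7b had 14.0, 12.3 and 15.2 CPM in WT and 22.9, 18.6 and 27.9 CPM in KO libraries. Tlr3, the receptor for double-stranded RNA, had 10.5, 10.7 and 8.67 CPM in WT and 13.1, 11.8 and 16 CPM in KO libraries. In each of these 3 genes KO3 was the highest and KO2 the lowest KO library, as for Xcr1, and so it was in 10 of the 23, while KO3 was the lowest KO library in 8 of the 23, Irf8, Cd24a, Btla and Itgax among them. Tlr12, the partner of Tlr11, was a gene with a negative difference, at 20.8, 33.5 and 37.4 CPM in WT and 26.6, 16.6 and 30.6 CPM in KO libraries (log2 fold change -0.31, 95% interval -0.94 to 0.31). Itgax, which encodes CD11c of all conventional DCs, had overlapping groups with a log2 fold change of 0.15 (95% interval -0.16 to 0.46).

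**Figure D4:**
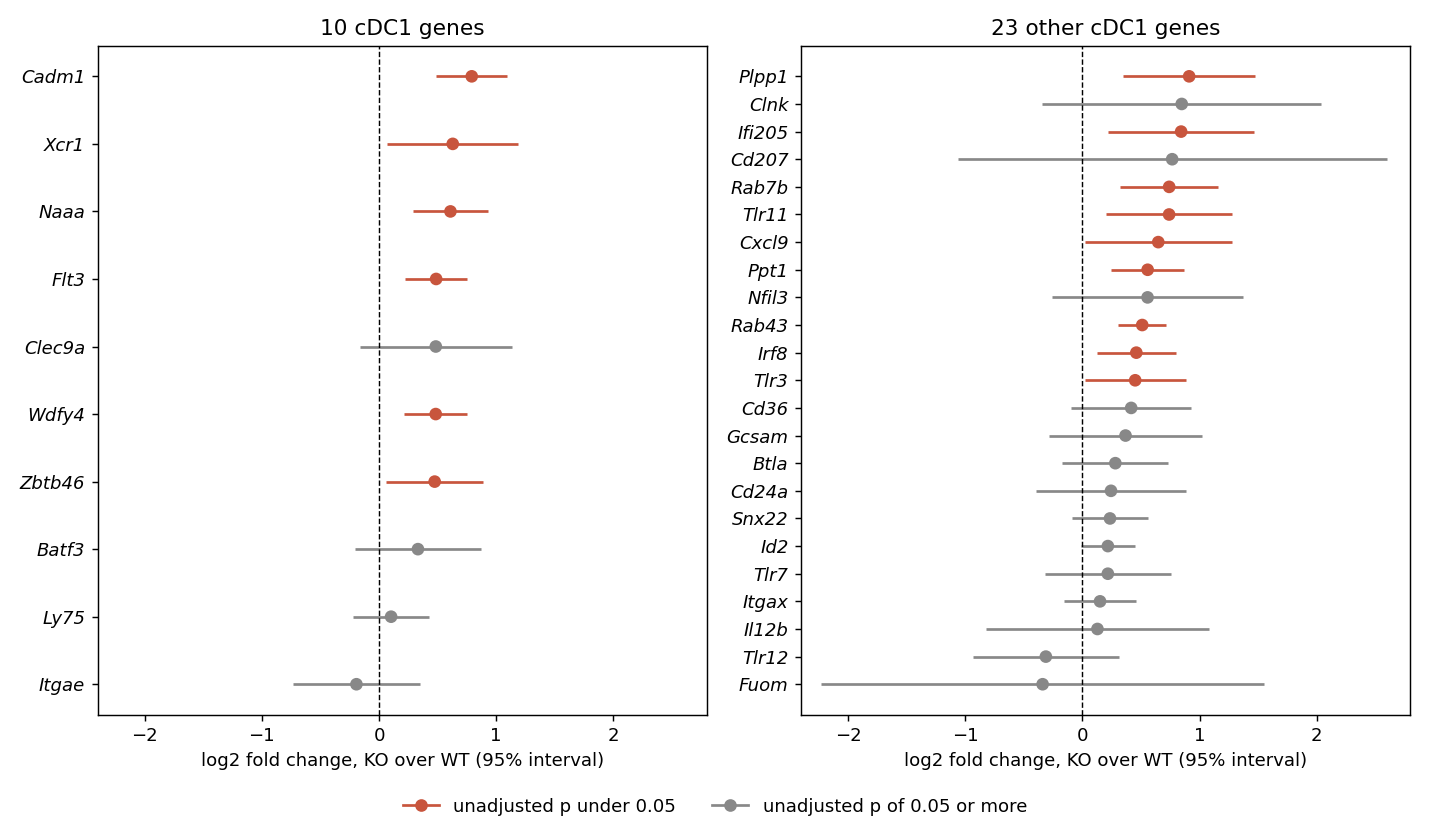
Fitted log2 fold change of KO over WT (horizontal axis, dashed line at 0) with its 95% interval for the 10 cDC1 genes (left) and 23 other cDC1 genes (right), in red where the unadjusted p-value was under 0.05 and grey elsewhere. In red are 6 genes on the left and 9 on the right, all above 0, and none has an adjusted p-value under 0.05.

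For the general machinery of cross-presentation the differences were centred near 0. B2m, Rac2, Hspa5 and Calr, with the highest CPM of the list, had log2 fold changes between -0.15 and 0.068 and overlapping groups. Of 21 genes 7 had a positive and 14 a negative log2 fold change, with a median of -0.043 that ran from -0.10 without KO3 to -0.028 without KO2, and 0 passed the adjusted threshold while 3 had an unadjusted p-value under 0.05 (edgeR), 1 higher and 2 lower, against 4.14% and 2.11% of all tested genes. DESeq2 called 1, again Rab43, against 0.463% of all genes, and limma voom 0. Rab43, which stands in both lists, was the gene of these 3 with higher KO levels, and the immunoproteasome subunit Psmb10 had 127, 133 and 136 CPM in WT and 110, 103 and 113 CPM in KO libraries. Of 26 tested transcription and growth factor genes of DCs, 20 had a positive difference, with a median of 0.29 that moved to 0.14 without KO2 and to 0.52 without KO3. Of these, 4 had an unadjusted p-value under 0.05, all higher, against 4.14% of all tested genes, and 0 an adjusted one (edgeR), and DESeq2 and limma voom called 0. Ikzf1 and Stat3, the lymphoid and cytokine-response factors with high CPM here, had log2 fold changes of -0.068 and -0.0031. Kit, a growth factor receptor of progenitors and mast cells, had 16.6, 21.0 and 19.2 CPM in WT and 24.1, 32 and 27.4 CPM in KO libraries. Irf8, Id2 and Nfil3 stand in this list and in that of other cDC1 genes, and Csf1r also stands among the macrophage markers.

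How closely other genes followed Xcr1 and Clec9a was described by Pearson's r between log2 CPM and the mean of both receptors over the 6 libraries, each of which gives all genes the same depth and cell mixture. Of the other 8 cDC1 genes, Flt3 had r = 0.88, Naaa 0.84, Ly75 0.81, Zbtb46 0.60, Cadm1 0.47, Itgae 0.42, and Batf3 and Wdfy4 both 0.22. The 6 genes outside the 10 with the largest r, out of 12268 with a mean log2 CPM of at least 1, were Smpd4, Wdr41, Tdrd3, Gm8730, Thg1l and Wdr86, with r between 0.96 and 0.98. By ranks, rho for these 6 lay between 0.49 and 0.94, while 12 other genes outside the 10 had rho of 1, so the 6 are the most alike by Pearson's r and not by ranks. Among the cDC1 genes the order by ranks put Ly75 first, with rho of 0.83, before Flt3 and Naaa, both 0.71, and Itgae, 0.66, before Zbtb46, 0.60. Each of the 6 genes outside the 10 had its highest level in KO3. Smpd4, a sphingomyelinase gene, had 41.2, 41.7 and 40.8 CPM in WT and 44.6, 40.7 and 50.6 CPM in KO libraries. Gm8730, a processed pseudogene whose reads may be shared with its parent gene, had 408 CPM in KO3, between 1.2 and 6.35 CPM in the other KO libraries and at most 0.124 CPM in WT. None of the 6 belongs to a list of DC genes used here, and 13 genes outside the 10 had r of at least 0.95.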

How the data were processed

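RNA-seq of CD8a+ spleen leukocytes was analysed from 3 WT and 3 KO libraries (SMARTER mRNA kit). The files deposited by the authors hold expected counts, which are estimates and can be fractions, for each Ensembl gene, and show no scaling in their values. The submitters' processing notes name GRCm38 (mm10), and the aligner, counting program, annotation and use of strand are not given in the sources used here. Of 44678 gene identifiers, 44121 (98.75%) matched GENCODE M21 on GRCm38, which gave symbols, positions and exon lengths.

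Counts were rounded and fitted in R 4.3.3 with edgeR 4.0.16, with TMM factors (0.989 to 1.01), filterByExpr (minimum count 10, minimum total 15), the quasi-likelihood test and Benjamini-Hochberg adjustment over 13024 genes at 0.05. CPM use TMM-scaled totals. The 95% intervals come from the standard error and the moderated degrees of freedom. Likeness used log2(CPM + 0.5). Genes named beyond the 10 were taken from the 4 with the highest mean CPM and the 2 with the smallest p-value in each list, not all of which are printed for the marker lists of other cells, the 6 most like Xcr1 and Clec9a, and those said to be picked later. The 10 genes and all lists were chosen with earlier results of these data known. Alternatives were DESeq2 1.42.0, limma 3.58.1 (voom), upper-quartile factors, library totals, 2 other count filters, a replicate block, and each library left out. The fit was tested on simulated counts. Flt3l and Ahsp of the lists had no matching symbol.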

Additional observations from a re-analysis of the deposited data

How the results depend on the processing

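Over 13 alternatives for each of the 10 genes, 128 of 130 log2 fold changes kept their direction, and 3 passed the adjusted threshold, Cadm1 with DESeq2 and without KO replicate 3 and Naaa with DESeq2. The reversed values were those of Ly75, -0.0070 without WT replicate 1 and -0.030 without KO replicate 3, from 0.10, and its values with a library left out ran from -0.030 to 0.21. The number of the 10 genes called, 0 in the main fit, was 2 with DESeq2, and ran from 0 to 1 with a library left out, the 1 being Cadm1 without KO replicate 3. The number of all genes called, 4 in the main fit, was 58 with DESeq2, 12 without a filter on low counts and 9 with the replicate block, and ran from 2 (without WT replicate 1 or WT replicate 3) to 94 (without KO replicate 3) with a library left out. The number of the 10 genes at an unadjusted p-value under 0.05 stayed between 4 and 6, and those above 0 between 8 and 9. The matching shares of all tested genes were counted in the main fit only, at 4.14% higher and 2.11% lower (edgeR), and 50.6% above 0. The median log2 fold change of the 10 genes ran from 0.36 to 0.51 with a library left out. The cause of these moves was not tested. The replicate numbers come only from the sample names, same-numbered libraries had correlations of deviations of -0.0066, -0.22 and 0.13, and with the block 4 of the 10 genes had an unadjusted p-value under 0.05 and 0 were called. Depth limits Batf3 and Zbtb46 most, with counting errors of 9.31% to 13.1% per library. For the 6 genes most like Xcr1 and Clec9a, the lowest likeness was 0.49 by ranks against 0.96 by Pearson's r.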
